A study of Mus musculus with 14 samples.

Results

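The circadian clock was examined in mouse heart through 10 of its genes. *Arntl* (also called *Bmal1*), *Clock* and *Npas2* encode activators, *Per1*, *Per2*, *Per3*, *Nr1d1*, *Nr1d2* and *Ciart* encode repressors, and *Dbp* encodes an output transcription factor. The genes were taken by symbol from the 54532 gene identifiers of the count files, with symbols and positions from GENCODE M21, and all 10 were found. The study compared hearts of mice in which frataxin, a mitochondrial protein of iron-sulfur cluster assembly, is reduced. The samples used here were 4 hearts labelled WT, 4 labelled YG8-800, and 3 female and 3 male hearts labelled KIKO-700, all C57BL/6 and all labelled as taken on postnatal day 180, whereas the study's methods give an older age. Per the study, YG8-800 mice lack both copies of the mouse frataxin gene (exon 2 deleted) and carry 1 copy of a human frataxin transgene with an expanded GAA repeat in intron 1. Their WT littermates keep mouse frataxin and carry no transgene. In KIKO-700 mice, 1 allele of the mouse gene lacks exon 4 and the other holds a GAA expansion. These alleles are constitutive and are not limited to heart muscle, so other cell types and organs carry them too. The 4 WT and 4 YG8-800 libraries are called the YG8-800 experiment below, and WT hearts of the KIKO-700 cohort were not analysed here.

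The mammalian clock is a transcriptional loop that runs in nearly every cell. A heterodimer of ARNTL with CLOCK or NPAS2 binds E-boxes and drives the *Per*, *Cry*, *Nr1d*, *Dbp* and *Ciart* genes. PER and CRY proteins then shut that heterodimer off, and the REV-ERB proteins made from *Nr1d1* and *Nr1d2* repress *Arntl* itself through ROR elements. As a result *Arntl* RNA peaks at about the opposite time of day from *Nr1d1* and *Dbp* RNA. In mouse heart the loop times ion channels, fuel use and the response to stress. Levels of these genes therefore depend on the hour at which a heart is taken, and neither the labels nor the methods give that hour or the lighting.

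Reads came from the 3′ ends of transcripts (Lexogen QuantSeq FWD), so a transcript gives about the same number of reads whatever its length. Levels are CPM, counts scaled to a common library total, after TMM scaling over the 14 libraries. Total counts per library ranged from 5226233 to 11650840 in the YG8-800 experiment and from 7291596 to 10873728 in KIKO-700. *Xist*, the RNA of the inactive X chromosome, stood at 38.0 to 52.7 CPM in 5 of the 8 libraries of the YG8-800 experiment and at 0 to 0.328 CPM in the other 3. The labels give no sex for those 8, and the study's results section states that only males were used. The 6 KIKO-700 libraries matched their labelled sex. It is not settled here whether the labels WT and YG8-800 match the genotypes, so both are used as names of libraries only. Ventricular markers had a summed level of 21158 to 41217 CPM in the YG8-800 experiment and 33297 to 43908 CPM in KIKO-700, so both sets were heart muscle by that list.

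Promoter windows of 300 bases, from 250 before to 50 after each annotated start, were found for 9 of the 10 genes in RefSeq on GRCm38.p6. They were searched on both strands for the E-box CACGTG, the D-boxes TTATGTAA and TTACGTAA, to which DBP and its relatives bind, the ROR elements TAGGTCA and TGGGTCA, and the cAMP response element TGACGTCA. Of 32851 windows of all genes, 7.15% held the E-box, 1.06% a D-box, 6.45% a ROR element and 1.79% the cAMP response element. Among the 13 windows of clock genes, those printed here held a motif, and no hits overlapped each other. They are shown because the loop described above works through such sites. Capitals mark the motifs, and a match describes letters, not a bound site. *Ciart* held 3 E-boxes, whose first bases lie 116, 58 and 44 bases before the start (chr3:95882179-95882478, minus strand). *Per1* held 1 E-box, 166 bases before the start of its first window (chr11:69098699-69098998, plus strand). *Per3* held 2 D-boxes, 205 and 158 bases before the start (chr4:151044616-151044915, minus strand). The second *Arntl* window held 1 ROR element from base 31 after the start (chr7:113207261-113207560, plus strand). Windows of *Clock*, *Npas2*, *Nr1d1*, *Nr1d2* and *Dbp* held none of these motifs, and neither did the first *Arntl* or the second *Per1* window. No window was found for *Per2*, and E-boxes were in windows of *Ciart* and *Per1* only.
Ciart: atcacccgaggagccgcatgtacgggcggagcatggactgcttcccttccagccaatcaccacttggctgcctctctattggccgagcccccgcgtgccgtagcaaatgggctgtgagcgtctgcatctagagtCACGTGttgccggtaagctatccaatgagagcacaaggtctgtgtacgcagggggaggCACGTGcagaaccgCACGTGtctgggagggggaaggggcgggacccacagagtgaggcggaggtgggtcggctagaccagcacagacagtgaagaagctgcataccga
Per1: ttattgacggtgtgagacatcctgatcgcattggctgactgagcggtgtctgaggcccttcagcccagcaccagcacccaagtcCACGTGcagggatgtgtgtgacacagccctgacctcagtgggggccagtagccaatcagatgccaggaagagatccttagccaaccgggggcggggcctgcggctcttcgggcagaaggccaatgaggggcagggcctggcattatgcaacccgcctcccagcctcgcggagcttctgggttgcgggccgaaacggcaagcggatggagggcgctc
Per3: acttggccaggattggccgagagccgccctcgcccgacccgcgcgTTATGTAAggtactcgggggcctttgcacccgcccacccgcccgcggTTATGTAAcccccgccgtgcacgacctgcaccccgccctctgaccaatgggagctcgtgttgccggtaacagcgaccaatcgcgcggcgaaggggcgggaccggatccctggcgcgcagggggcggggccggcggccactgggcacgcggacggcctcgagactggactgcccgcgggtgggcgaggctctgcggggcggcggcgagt
Arntl: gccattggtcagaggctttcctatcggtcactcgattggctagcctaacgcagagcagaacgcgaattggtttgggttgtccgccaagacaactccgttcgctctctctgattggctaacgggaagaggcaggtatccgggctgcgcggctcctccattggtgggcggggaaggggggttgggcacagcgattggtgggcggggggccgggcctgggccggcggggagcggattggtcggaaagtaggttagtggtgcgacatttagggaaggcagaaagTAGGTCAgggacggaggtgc

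The KIKO-700 hearts and the hearts of the YG8-800 experiment differed in both arms of the clock. In KIKO-700, *Arntl* and *Clock* were lower and *Per1*, *Per2*, *Per3*, *Nr1d1*, *Nr1d2*, *Dbp* and *Ciart* were higher, all at an adjusted p under 0.05 by edgeR's quasi-likelihood test. Fold changes ran from 24.8-fold lower for *Arntl* to 8.94-fold higher for *Dbp*. Of 13023 genes tested in this comparison, 36.3% passed the same threshold, 17.2% higher and 19.1% lower, so passing it was common. *Arntl* passed the filter on low counts only through the YG8-800 experiment, and *Per2* and *Ciart* only through KIKO-700, so these 3 had to differ. The other 6 of the tested genes passed the filter in each set alone. *Npas2* passed in neither set and was not tested. The mouse line and the cohort change together between the 2 sets and cannot be told apart, and the hour of collection is known for neither. In whole-heart RNA, fewer cells of a type and less RNA per cell cannot be told apart either.

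**Figure D1:**
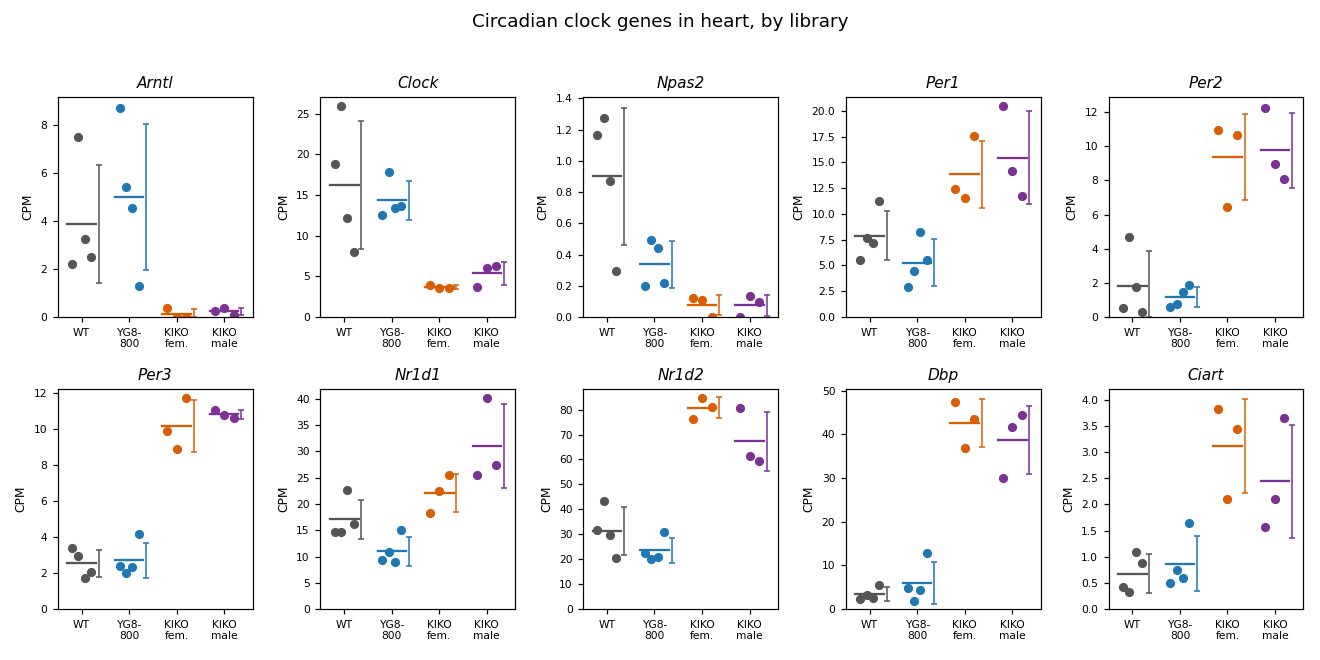
Level of each of the 10 clock genes in CPM (vertical axes, from 0) in the 14 heart libraries, 1 point a library, with the mean as a bar and the SD as a whisker for WT (n = 4), YG8-800 (n = 4), KIKO-700 female (n = 3) and KIKO-700 male (n = 3). KIKO-700 *Dbp* lies between 30.0 and 47.5 CPM, above the 1.85 to 12.9 CPM of the other 8 libraries, while KIKO-700 *Arntl* lies between 0 and 0.395 CPM, below their 1.31 to 8.72 CPM.

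*Arntl* (ENSMUSG00000055116, chromosome 7 of GRCm38 from 113207465 to 113314126, plus strand) encodes the activator without which the clock stops in mice. It stood at 2.22, 7.50, 3.26 and 2.51 CPM in WT 1 to 4 and at 8.72, 5.43, 4.55 and 1.31 CPM in YG8-800 1 to 4. The KIKO-700 females held 0.358, 0 and 0 CPM and the males 0.241, 0.395 and 0.0937 CPM. Every KIKO-700 library was thus below every other library, and the 6 together held 9 *Arntl* reads against 321 in the other 8. The log2 fold change was −4.63 (SE 0.61, adjusted p = 4.92e-05 from edgeR), the 9th in size of all genes tested. At 0 to 3 reads a library that value is loose. Its direction was fixed by the filter on low counts, which *Arntl* passed only through the YG8-800 experiment, so its p carries no weight. The ratio of pooled reads over library totals was 25.4, with an exact 95% interval of 13.2 to 56.0 that covers counting error only. A count of 0 still allows up to 0.333 and 0.382 CPM in the female libraries 2 and 3.

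*Clock* (ENSMUSG00000029238, chromosome 5 from 76209868 to 76304792, minus strand), the partner of *Arntl*, stood at 18.9, 25.9, 12.2 and 7.96 CPM in WT and at 12.5, 17.9, 13.4 and 13.7 CPM in YG8-800. It stood at 3.94, 3.55 and 3.56 CPM in KIKO-700 females and 3.73, 6.05 and 6.28 CPM in males. The sets did not overlap, and the nearest pair was WT 4 and KIKO-700 male 3. The log2 fold change was −1.78 (SE 0.24, adjusted p = 4.17e-05 from edgeR). *Npas2* (ENSMUSG00000026077, chromosome 1 from 39193731 to 39363236, plus strand), which can replace *Clock* in the dimer, was near the limit of detection, at 1.16, 1.28, 0.870 and 0.295 CPM in WT and 0.200, 0.494, 0.441 and 0.218 CPM in YG8-800. KIKO-700 females held 0.119, 0.111 and 0 CPM and males 0, 0.132 and 0.0937 CPM. Its pooled reads were 44 against 4, a ratio of 7.83 with a 95% counting interval of 2.85 to 30.0. A pseudogene on the same strand inside *Npas2*, *Gm3617*, held 51 and 4 reads in the same sets, and their reads could not be told apart beyond the authors' assignment. *Npas2* was therefore lower in the same direction as *Clock* in pooled reads, with no test over libraries.

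The *Period* genes encode the repressors that enter the nucleus with CRY proteins. *Per1* (ENSMUSG00000020893, chromosome 11 from 69095217 to 69109960, plus strand) stood at 5.51, 7.66, 7.17 and 11.2 CPM in WT and 2.91, 4.44, 8.22 and 5.57 CPM in YG8-800. In KIKO-700 it stood at 12.4, 11.5 and 17.6 CPM in females and 20.4, 14.2 and 11.7 CPM in males. The lowest KIKO-700 library was just above WT 4, and the log2 fold change was 1.19 (SE 0.23, adjusted p = 7.43e-04 from edgeR). *Per2* (ENSMUSG00000055866, chromosome 1 from 91415982 to 91459324, minus strand) stood at 0.530, 4.71, 1.74 and 0.295 CPM in WT and 0.601, 0.741, 1.47 and 1.86 CPM in YG8-800. It stood at 11.0, 6.44 and 10.7 CPM in KIKO-700 females and 12.3, 8.94 and 8.06 CPM in males. The log2 fold change was 2.65 (SE 0.42, adjusted p = 2.99e-04 from edgeR), and WT 2 was the highest of the 8 libraries below. *Per2* passed the filter on low counts only through KIKO-700, where it is high, so its direction was fixed. *Per3* (ENSMUSG00000028957, chromosome 4 from 151003652 to 151044665, minus strand), the member whose promoter window held D-boxes, stood at 3.39, 2.95, 1.74 and 2.06 CPM in WT and 2.41, 1.97, 2.35 and 4.15 CPM in YG8-800. It stood at 9.90, 8.88 and 11.7 CPM in KIKO-700 females and at 11.1, 10.8 and 10.6 CPM in males. The sets were well apart, and its log2 fold change of 1.96 (SE 0.20) had the smallest adjusted p of the 9 genes tested, 3.24e-06 from edgeR. *Per3* lies inside *Camta1* on the same strand, which held 3853 and 1553 reads in the YG8-800 experiment and KIKO-700.

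The REV-ERB genes encode nuclear receptors that repress *Arntl*. *Nr1d1* (ENSMUSG00000020889, chromosome 11 from 98767932 to 98775333, minus strand) stood at 14.6, 14.8, 22.6 and 16.2 CPM in WT and 9.32, 10.9, 8.96 and 15.0 CPM in YG8-800. It stood at 18.4, 22.4 and 25.5 CPM in KIKO-700 females and 25.5, 40.2 and 27.4 CPM in males. The sets overlapped, because WT 3 was above KIKO-700 females 1 and 2, and the log2 fold change was 0.94 (SE 0.18, adjusted p = 6.67e-04 from edgeR). *Nr1d1* shares its 3′ end with *Thra* on the other strand, which held 3118 and 3686 reads, and only the study's methods state that reads were assigned by strand. *Nr1d2* (ENSMUSG00000021775, chromosome 14 from 18204054 to 18239127, minus strand) stood at 31.9, 43.5, 29.6 and 20.3 CPM in WT and 22.4, 20.2, 20.9 and 31.0 CPM in YG8-800. In KIKO-700 it stood at 76.3, 84.7 and 81.0 CPM in females and 80.8, 61.6 and 59.4 CPM in males. The sets did not overlap, with a log2 fold change of 1.43 (SE 0.17, adjusted p = 1.42e-05 from edgeR).

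*Dbp* (ENSMUSG00000059824, chromosome 7 from 45705088 to 45710203, plus strand) encodes a bZIP factor that carries the rhythm to genes with D-boxes. It stood at 2.22, 3.27, 2.61 and 5.60 CPM in WT and 4.81, 1.85, 4.26 and 12.9 CPM in YG8-800. In KIKO-700 it stood at 47.5, 36.7 and 43.4 CPM in females and 30.0, 41.7 and 44.4 CPM in males. YG8-800 4 was the highest of the 8 and was still well below every KIKO-700 library. The log2 fold change was 3.16 (SE 0.32, adjusted p = 8.03e-06 from edgeR), the 33rd in size of all genes tested. *Sphk2* overlaps *Dbp* on the other strand and held 524 and 577 reads, against 322 and 2110 reads of *Dbp*. *Ciart* (ENSMUSG00000038550, chromosome 3 from 95878503 to 95882251, minus strand), which encodes the repressor CHRONO and whose promoter window held 3 E-boxes, stood at 0.424, 0.319, 1.09 and 0.885 CPM in WT and 0.501, 0.741, 0.587 and 1.64 CPM in YG8-800. It stood at 3.82, 2.11 and 3.44 CPM in KIKO-700 females and 1.56, 2.10 and 3.66 CPM in males. YG8-800 4 and KIKO-700 male 1 overlapped, and the log2 fold change was 1.90 (SE 0.36, adjusted p = 7.44e-04 from edgeR). *Ciart* passed the filter on low counts only through KIKO-700, where it is high, so its direction was fixed. An antisense gene over *Ciart*, *C920021L13Rik*, held 87 and 61 reads in the YG8-800 experiment and KIKO-700, against 49 and 146 reads of *Ciart*.

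Of the 6 genes that passed the filter in each set alone, *Clock*, *Per1*, *Per3*, *Nr1d2* and *Dbp* did not overlap between the sets. *Nr1d1* overlapped. Among all genes tested, 11% did not overlap, 6.7% higher and 4.28% lower. The clock genes and this comparison were chosen with earlier results of these data known. Such shares therefore describe the members and are no independent test of them. An absolute log2 fold change above 2 was reached by 1.85% of genes tested and one above 3 by 0.33%, and the median over all genes was −0.04. These 6 kept their direction and their call when any library was left out, under every other scaling, filter and tool run, and when KIKO-700 was set against the libraries labelled WT alone or YG8-800 alone, except that *Per3* could not be fitted with a minimum of 10 counts in each library. Their highest adjusted p over these settings was 0.0387, for *Nr1d1*, and the log2 fold change of *Dbp* ranged from 2.75 to 3.67. That of *Arntl*, whose direction the filter fixed, ranged from −6.22 to −3.39 over the 28 settings that could be fitted.

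**Figure D2:**
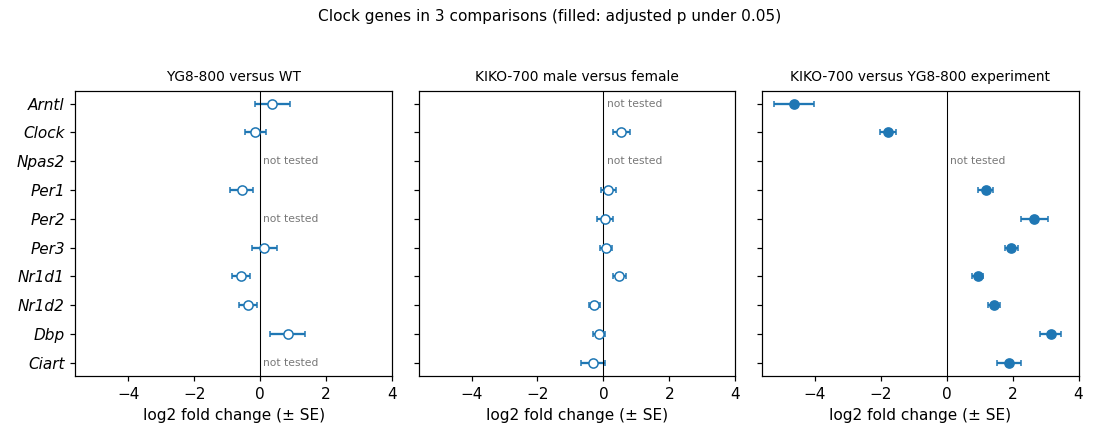
Log2 fold change with its SE (horizontal axis) of each clock gene in the 3 comparisons, filled where the adjusted p from edgeR was under 0.05. In the YG8-800 and the sex comparison no point is filled. In KIKO-700 against the YG8-800 experiment all 9 tested genes are, from −4.63 for *Arntl* to 3.16 for *Dbp*. There 36.3% of all genes tested passed the same threshold. The filter on low counts fixed the directions of *Arntl*, *Per2* and *Ciart*, so their filled points carry no weight.

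**Figure D3:**
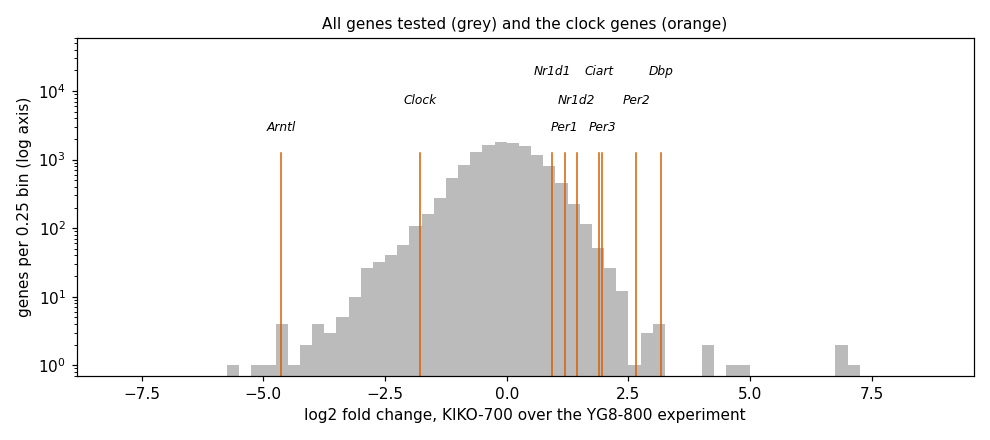
Distribution of the log2 fold change of all 13023 genes tested in KIKO-700 against the YG8-800 experiment (grey bars, number of genes per bin on a log axis), with the 9 tested clock genes as orange lines. *Arntl* lies in the lower tail at −4.63 and *Per2* and *Dbp* in the upper tail at 2.65 and 3.16, whereas *Nr1d1* at 0.94 and *Per1* at 1.19 lie within the body. The directions of *Arntl*, *Per2* and *Ciart* were fixed by the filter on low counts.

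The arms of the loop were also summed within each library. *Arntl*, *Clock* and *Npas2* together held 10.8 to 34.7 CPM in the YG8-800 experiment and 3.56 to 6.58 CPM in KIKO-700. The 3 *Per* genes, *Nr1d1*, *Nr1d2* and *Ciart* together held 38.1 to 73.9 CPM in the YG8-800 experiment and 121 to 152 CPM in KIKO-700. The ratio of repressor to activator reads was 1.64 to 4.74 in the 8 libraries (median 2.42) and 18.7 to 42.0 in the 6 (median 33.5). Within 1 library this ratio does not depend on its scaling. Reads of *Nr1d2* over those of *Clock*, which are both among the better counted members, gave 1.13 to 2.56 and 9.46 to 23.8. The labels WT and YG8-800 overlapped in each of these sums and ratios, and the KIKO-700 libraries stood apart in each. In KIKO-700, males 2 and 3 had the lowest ratios of repressor to activator and male 1 lay among the females.

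**Figure D4:**
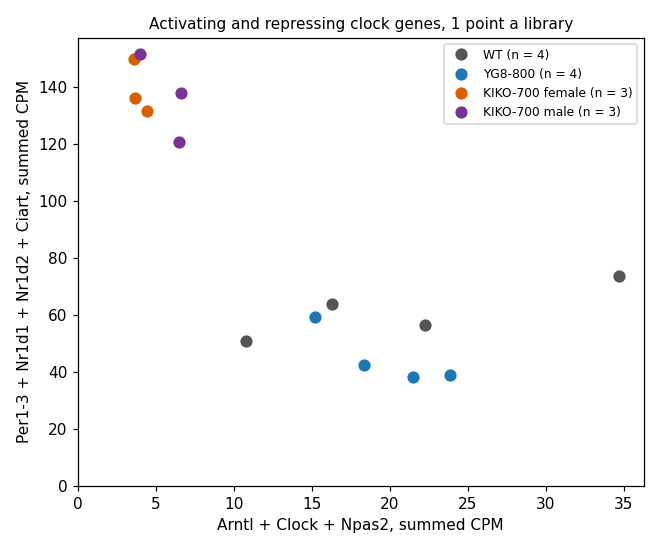
Summed CPM of the 6 repressor genes (vertical axis) against that of the 3 activator genes (horizontal axis), 1 point for each of the 14 libraries. The KIKO-700 points fill the upper left (3.56 to 6.58 by 121 to 152 CPM) and the WT and YG8-800 points mix in the lower right (10.8 to 34.7 by 38.1 to 73.9 CPM).

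Other core clock genes were read from a list of 12, of which 10 were tested in KIKO-700 against the YG8-800 experiment, 5 were higher and 1 lower. Of all genes tested, 17.2% were called higher and 19.1% lower, and 11% did not overlap between the sets. *Tef* and *Hlf*, the bZIP relatives of *Dbp* that bind the same D-boxes, were higher. *Tef* stood between 15.9 and 38.6 CPM (median 26.3) in the YG8-800 experiment and between 114 and 183 CPM (median 136) in KIKO-700, a log2 fold change of 2.34 (SE 0.19). *Hlf* stood between 3.11 and 11.1 CPM (median 6.45) and between 15.7 and 22.5 CPM (median 17.3), a log2 fold change of 1.51 (SE 0.21). Neither overlapped. *Nfil3*, which encodes a repressor at those same D-boxes, was lower, with a log2 fold change of −0.88 (SE 0.24, adjusted p = 0.00818 from edgeR), and its sets overlapped. The cryptochromes *Cry1* and *Cry2*, partners of the PER proteins, had log2 fold changes of 0.77 (SE 0.20) and 1.11 (SE 0.19), and neither overlapped. The call of *Cry1* was lost against the libraries labelled WT alone, where the log2 fold change was 0.59 (adjusted p = 0.0789 from edgeR). *Bhlhe41*, a repressor that competes at E-boxes, was at 0.63 (adjusted p = 0.0364 from edgeR). Its sets overlapped, at 5.29 to 11.3 CPM in the YG8-800 experiment and 6.13 to 17.8 CPM in KIKO-700. *Rora*, an activator at ROR elements, was at 0.08 (adjusted p = 0.737 from edgeR). *Bhlhe40* and *Timeless* did not pass either, at −0.23 and −0.63, and *Rorb* and *Arntl2* were too low to test.

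**Figure D5:**
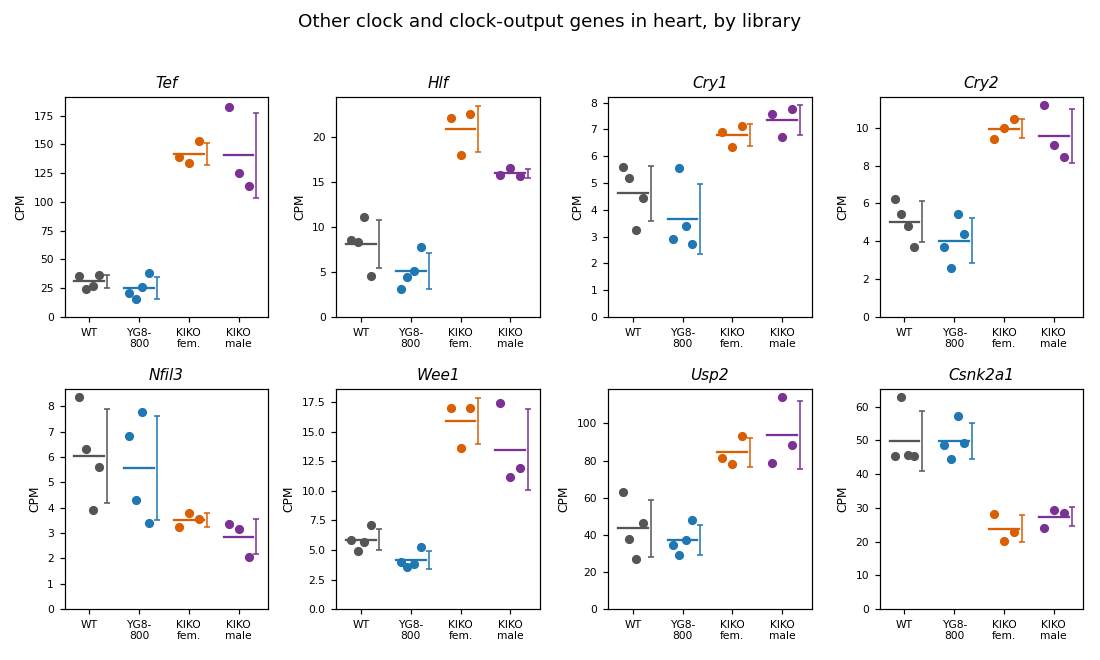
Level in CPM (vertical axes, from 0) of 8 other clock and clock-output genes in the 14 libraries, 1 point a library, with the mean as a bar and the SD as a whisker for each of the 4 label groups. *Tef* lies between 114 and 183 CPM in KIKO-700 and between 15.9 and 38.6 CPM elsewhere, *Csnk2a1* lies lower in KIKO-700, and the sets overlap for *Nfil3*.

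Of 9 genes for kinases and ubiquitin ligases that set the life of PER and CRY proteins, 8 were tested. The share called was under the 36.3% of all genes tested, so the count says nothing particular about them. *Csnk1d*, a kinase of PER proteins, was higher at a log2 fold change of 0.80 (SE 0.16), and *Csnk2a1*, the catalytic subunit of casein kinase 2, was lower at −0.97 (SE 0.15). The 6 others did not pass, among them *Csnk1a1* at −0.43 (adjusted p = 0.0627). Of 12 genes listed as clock outputs of heart, 6 were higher and 3 lower, where 17.2% of all genes tested were higher and 19.1% lower. The higher ones included *Wee1*, a cell-cycle kinase under E-box control, at 1.57 (SE 0.17), *Dgat2*, an enzyme of triglyceride synthesis, at 1.54 (SE 0.19), *Kcnip2*, a potassium channel subunit, at 1.30 (SE 0.25), *Usp2*, a deubiquitinase, at 1.14 (SE 0.18) and *Kcnh2*, another potassium channel, at 1.00 (SE 0.17). The lower ones were *Pdk4*, which restrains pyruvate oxidation, at −2.68 (SE 0.60), the transcription factor *Klf15* at −1.04 (SE 0.26) and *Nampt*, which makes an NAD precursor, at −0.61 (SE 0.15). All of these passed an adjusted p under 0.05 by edgeR. *Pdk4* passed the filter on low counts only through the YG8-800 experiment, so it had to come out lower, and its level there leaned on WT 2, at 32.9 CPM. Its sets overlapped.

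Of the genes that follow systemic cues to the clock, 3 of 8, 3 of 8 and 2 of 8 tested in the 3 lists were called, near or under the 36.3% of all genes, so the counts say nothing particular about them. Of 8 genes that glucocorticoids induce, *Mt1* was higher (0.65, SE 0.24) and *Cdkn1a* (−1.27, SE 0.35) and *Fkbp5* (−0.67, SE 0.21) were lower. The calls of *Mt1* and *Fkbp5* were lost when several of the libraries were left out in turn. Of 8 genes that respond to temperature, *Dnajb1* (1.25, SE 0.23) and *Cirbp*, an RNA-binding protein made in the cold (0.75, SE 0.18), were higher and *Hsp90aa1* (−1.04, SE 0.15) was lower, and the call of *Cirbp* was lost against WT alone (adjusted p = 0.0859 from edgeR). Of 10 immediate early genes, 8 were tested and *Jun* (−0.58, SE 0.22) and *Nr4a1* (−2.24, SE 0.79) were lower, calls that were lost in many of the settings, and *Nr4a1* passed the filter only through the YG8-800 experiment, where it is high.

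Markers of other cell types were read in the same comparison, and their part in the clock values was not tested. Of all genes tested, 36.3% were called, 17.2% higher and 19.1% lower. All 5 erythroid markers were higher in KIKO-700, with summed levels of 13505 to 19460 CPM against 1305 to 5753 CPM. Of 6 atrial markers, 2 were higher, near the share of all genes called, with sums of 1617 to 2405 CPM against 102 to 1443 CPM. Of 6 fibroblast markers, 4 were lower, with sums of 437 to 736 CPM against 808 to 1465 CPM. Of 6 macrophage markers, 4 were higher and 1 lower, and their sums were 281 to 372 CPM against 113 to 273 CPM. Of 6 endothelial markers, 3 were higher, and their sums overlapped, at 705 to 853 CPM against 404 to 930 CPM. No adipocyte marker of the 5 tested was called. All 3 hepatocyte markers tested were higher, of which *Alb* and *Fgb* passed the filter only through KIKO-700, and *Fgb* and *Serpina1a* were each at 0 in 9 of the 14 libraries. Hepatocyte sums were 2.06 to 29.8 CPM in 5 KIKO-700 libraries and 404 CPM in KIKO-700 male 2, where *Ttr* alone held 403 CPM, against 0.530 to 5.87 CPM in the YG8-800 experiment. YG8-800 1 and 4 were the 2 libraries lowest in atrial markers, and WT 1 and 2 the 2 highest in adipocyte markers. Without either pair, the 6 members that passed the filter in each set kept their calls. The sets stayed apart in the erythroid, atrial and fibroblast sums after either removal, so these removals could not test cell content.

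Hearts labelled YG8-800 were then compared with those labelled WT, which by the labels sets a frataxin-deficient line against its littermates. No clock gene passed, and by edgeR no gene of the 11875 tested passed an adjusted p under 0.05 (0%), against 718 genes at an unadjusted p under 0.05 (6.05%) and 7 adjusted calls by DESeq2. Of the 7 members tested, *Nr1d1* alone was under an unadjusted 0.05. It stood at 11.0 ± 2.75 CPM (SD, n = 4) in YG8-800 and 17.1 ± 3.78 CPM (SD, n = 4) in WT, a log2 fold change of −0.59 (SE 0.27, unadjusted p = 0.0498, adjusted p = 0.825 from edgeR). The groups overlapped, since YG8-800 4 was above WT 1 and 2. *Per1* and *Nr1d2* were at −0.56 (SE 0.35) and −0.37 (SE 0.27). *Dbp* was at 0.84 (SE 0.53), a value that YG8-800 4 carried, for without that library it was 0.11. *Arntl* was at 0.37 (SE 0.52), and at −0.05 without YG8-800 1. *Clock* was at −0.14 (SE 0.32) and *Per3* at 0.12 (SE 0.39). *Npas2*, *Per2* and *Ciart* were too low to test. All 7 tested members overlapped between the labels, where 3.88% of genes tested did not. On simulated data the fit of YG8-800 versus WT recovered 10 of 100 changes of log2 size 1 at an adjusted p under 0.05. Changes of that size could thus be missed.

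KIKO-700 males were compared with KIKO-700 females, a comparison of 3 libraries with 3. By edgeR 8 of 11801 genes passed (0.0678%), none of them a clock gene, and 7.14% were under an unadjusted p of 0.05. *Nr1d1* was higher in males without passing the adjustment, at 31.0 ± 8.03 CPM (SD, n = 3) against 22.1 ± 3.56 CPM (SD, n = 3). Its log2 fold change was 0.48 (SE 0.20, unadjusted p = 0.0303, adjusted p = 0.650 from edgeR), and the sexes did not overlap, as in 12.6% of genes tested, though female 3 and male 1 both stood at 25.5 CPM. The highest was male 2 at 40.2 CPM, the library with 404 CPM of hepatocyte markers, and without it the log2 fold change of *Nr1d1* was 0.26 (unadjusted p = 0.193, adjusted p = 0.999 from edgeR). The part of those markers was not tested. *Clock* was at 0.54 (SE 0.26, adjusted p = 0.706 from edgeR). *Nr1d2* was at −0.27 (SE 0.16) and *Ciart* at −0.32 (SE 0.36). *Per1*, *Per2*, *Per3* and *Dbp* lay between −0.14 and 0.15. *Arntl* and *Npas2* were too low to test. This turned on male 1. Without it only males 2 and 3 were left against the 3 females, and 864 genes passed in place of 8. Among them were *Clock* at 0.74 (adjusted p = 0.0464), *Nr1d1* at 0.60 (adjusted p = 0.0272) and *Nr1d2* at −0.42 (adjusted p = 0.0469, all from edgeR). Male 2, the highest in *Nr1d1* and in hepatocyte markers, was still in that fit. *Hlf*, the relative of *Dbp*, was lower in every male than in every female, with a log2 fold change of −0.39 (SE 0.16, unadjusted p = 0.0297, adjusted p = 0.650 from edgeR).

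Within their labels the hearts of the YG8-800 experiment spread widely in *Arntl* and *Dbp*. The pooled SD of log2 CPM within WT and YG8-800 was 0.93 for *Arntl* and 0.86 for *Dbp*, above 93.1% and 91.0% of genes tested, where the median gene had 0.46. *Nr1d1* and *Nr1d2* spread less, at 0.31 and 0.37. Within the sexes of KIKO-700 the median gene had 0.26, *Per3* 0.14, *Nr1d2* 0.18, *Dbp* 0.25 and *Ciart* 0.50. A low mean count widens such an SD, and the part of it in *Arntl* was not tested.

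Across the 8 libraries of the YG8-800 experiment *Arntl* was set against each of the 9 other members on the log2 CPM scale. Negative values were largest for *Ciart* (Pearson r = −0.69, exact permutation p = 0.0603, adjusted p = 0.83; Spearman rho −0.55, exact p = 0.171, adjusted p = 0.778). *Nr1d1* followed (r = −0.51, exact permutation p = 0.201, adjusted p = 0.83; rho −0.50, exact p = 0.216, adjusted p = 0.778), and the others lay between −0.44 for *Dbp* and 0.34 for *Clock*. None of the 9 passed the adjustment, which ran over 18 relations, 9 in each set. Without YG8-800 1 and 4, the 2 libraries farthest from the median of *Arntl*, r was −0.39 for both *Ciart* and *Nr1d1*, and the values of largest size were positive, 0.77 for *Per2* and 0.62 for *Clock*, so the negative relations rest in part on those 2 libraries. *Ciart* held only 4 to 15 reads a library in these 8 libraries, so its values carry much counting error. Without WT 1, *Ciart* was at r = −0.91 (exact permutation p = 0.00516, adjusted p = 0.0929). Without YG8-800 4 it was at r = −0.43 (exact permutation p = 0.323, adjusted p = 0.922), and these were the ends of its range as each library was left out. In KIKO-700, 0 to 3 reads of *Arntl* a library leave no relation to read.

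The genes whose pattern was most like that of *Arntl* were sought among 7533 genes of at least 5 CPM over the 14 libraries, after the mean of each label group was taken off. The highest correlations were those of *Fnip1* (0.90), *Asb11* (0.88), *Gab1* (0.88), *Pdk1* (0.86) and *Mtmr6* (0.84), and the lowest those of *Sap30l* (−0.85), *Cdc42ep2*, *Dpep1*, *Ddrgk1* and *Exosc4* (−0.81). For *Dbp* the highest were *1110032A03Rik* (0.88), *Lsm12*, *Fam192a*, *U2af2* and *Tsen34* (0.80), and among the 5 lowest were *Gapvd1* (−0.89), *Vps26b*, *Fmo1* and *Gucy1a1* (−0.86). Among listed clock genes, *Tef* stood at 0.62 with *Dbp* and −0.63 with *Arntl*, *Cry1* at −0.61 with *Dbp*, and *Arntl* at −0.43 with *Dbp*. These are descriptions over libraries that share scaling and depth, and carry no p. The genes named first for each query are the extremes of 7533, so a large value alone does not mark a partner. In KIKO-700, *Arntl* held 0 to 3 reads a library, so those libraries add mostly counting error to its values.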

How the data were processed

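Heart RNA was read as Lexogen QuantSeq FWD libraries, 86 bases single-end. The authors deposited whole-number counts of reads per Ensembl gene, 1 file a library, not normalized. Their methods name ShortRead, Rsubread and featureCounts with stranded assignment, whereas the submitters' notes give HTSeq 0.6.1 and STAR 2.5.0a, with GRCm38.p6 as the build, and the difference was not settled. Of 54532 identifiers, 54495 were matched in GENCODE M21. Counts of the targeted gene are not reported here.

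Groups came from the labels alone. In R 4.3.3, edgeR 4.0.16 was used with filterByExpr, TMM and the robust quasi-likelihood F test in each comparison, with Benjamini-Hochberg adjustment over all genes tested and a threshold of 0.05. KIKO-700 was compared with the YG8-800 experiment as the mean of both sexes minus the mean of WT and YG8-800 over 14 libraries. Log2 CPM used a prior count of 2. The p-values measure the spread between hearts of the same label group. For KIKO-700 against the YG8-800 experiment they hold no spread between cohorts, since line and cohort change together. Copies of 1 molecule could not be removed from counts. The clock genes, the 16 gene lists and the comparison across sets were chosen with earlier results of these data known. All members are named, and of each other list up to 4 genes of smallest unadjusted p in each comparison. *Kcnip2*, *Kcnh2*, *Pdk4*, *Klf15*, *Nampt*, *Nfil3*, *Bhlhe41*, *Rora*, *Bhlhe40*, *Timeless*, *Rorb*, *Arntl2*, *Fgb* and *Serpina1a* fall outside that rule in the comparison where they are given, and were picked once their values had been seen. Some genes that the rule would name are not reported here.

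Other settings tried were DESeq2 1.42.0, limma-trend and limma-voom of limma 3.58.1, scaling by RLE, by the upper quartile or by library size alone, a minimum of 10 counts in each library or no filter, mitochondrial DNA and Gm-named genes left out, a replicate block, *Xist* as a covariate, all 14 libraries in 1 fit, a prior count of 0.5, and each library left out. The removal of 2 libraries together, each label alone as reference and the filter passed in each set were chosen after seeing the data. The fits were first tested on simulated data with known changes.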

Additional observations from a re-analysis of the deposited data

Results flagged for a closer look

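In 138 groups of 4 values over the clock and related lists, 8 held a library that lay past Dixon's 95% limit from the other 3, where chance gives about 1 in 20, and no member was among them. *Csnk2a1* stood at 63.0 CPM in WT 2 and *Btrc*, a ubiquitin ligase subunit, at 3.39 CPM in WT 4. *Pdk4* stood at 32.9 CPM in WT 2, where the other WT libraries held 3.04 to 6.34 CPM, and without WT 2 its log2 fold change in YG8-800 versus WT was −0.48 in place of −1.76. *Ucp3*, a mitochondrial carrier, stood at 12.1 CPM and *Mt2*, a metallothionein, at 111 CPM in WT 4. *Angptl4*, an inhibitor of lipoprotein lipase, stood at 20.4 CPM in YG8-800 1. The heat shock gene *Hspa1a* stood at 4.07 CPM in WT 2. *Fosb* was at 0.147 CPM in WT 4 and at 0 in the other WT libraries, which is 1 read.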

How the results depend on the processing

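In KIKO-700 versus the YG8-800 experiment the 6 members that passed the filter in each set kept direction and call in all 30 settings, the reported one included, except *Per3*, fitted in 29. That comparison called 3591 to 5619 genes as each library was left out, and library size alone moved the median of all genes to 0.08. In YG8-800 versus WT, the genes called were 107 with no filter, 7 by DESeq2 and 1 with all 14 libraries in 1 fit, and 0 to 146 as each library was left out, the last without WT 4. Those at an unadjusted p under 0.05 were 1727 with no filter, 1438 with all 14 libraries, 248 without YG8-800 1 and 4 together, and 484 to 1695 as each library was left out. In KIKO-700 male versus female, the genes called were 105 with no filter, 2 with at least 10 counts, 18 by DESeq2, 0 with all 14 libraries (186 at an unadjusted p under 0.05, and 1475 with no filter), and 4 to 864 (460 to 2610 unadjusted) as each library was left out, the highest without male 1. The causes were not tested. Replicate numbers did not pair the libraries (correlations of −0.23, 0.25, −0.03 and 0.13, and in KIKO-700 of −0.16, −0.04 and −0.19), and a replicate block gave 0 genes (867 unadjusted) and 6 (628).

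Uncalled log2 fold changes turned sign in YG8-800 versus WT with library size alone (*Per3* −0.16, *Csnk1e* −0.046, *Hspa8* −0.043, with the median of all genes at −0.21), with *Xist* as covariate (*Hspa8* −0.069), without YG8-800 1 and 4 (*Per3* −0.24, *Dbp* −0.17), and without WT 1 and 2 (*Clock* 0.51, *Rora* 0.063, *Gsk3b* 0.29, *Csnk1a1* 0.051, *Hspa8* −0.041). *Egr1* turned to −0.050 by limma-trend between the sexes, and *Zbtb16* to 0.13 in KIKO-700 versus the YG8-800 experiment without YG8-800 1 and 4. The correlation of *Arntl* with *Nr1d2* turned to 0.22 with library size alone. As each library was left out, YG8-800 versus WT gave *Arntl* −0.050 to 0.96, *Clock* −0.36 to 0.18, *Per3* −0.16 to 0.26, *Gsk3b* −0.51 to 0.054, *Csnk1e* −0.032 to 0.29, *Rbm3* −0.52 to 0.045, *Hspa8* −0.075 to 0.25 and *Ier2* −0.066 to 0.73. Between the sexes it gave *Per1* −0.10 to 0.35, *Per2* −0.16 to 0.18, *Per3* −0.0051 to 0.19, *Dbp* −0.26 to 0.018, *Bhlhe41* −0.10 to 0.55, *Fkbp5* −0.10 to 0.64, *Hspa1a* −0.50 to 0.71 and *Egr1* −0.63 to 0.68. Correlations with *Arntl* ranged for *Npas2* from −0.23 to 0.49, *Per1* −0.54 to 0.063, *Per2* −0.22 to 0.46, *Per3* −0.59 to 0.021, *Nr1d2* −0.64 to 0.079 and *Dbp* −0.64 to 0.14, and 0 of them passed. Depth limits *Arntl*, *Npas2*, *Per2*, *Per3* and *Ciart*, which had under 10 reads in some libraries.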
